A study of Mus musculus with 7 samples.

Results

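The axon guidance genes described here are 52 mouse ligands, receptors, intracellular collapsin response mediator proteins (CRMPs) and adhesion molecules. Their regulatory regions were taken as the H3K27ac peaks that overlap the gene body plus 5 kb on each side (mm10 genome, GENCODE M21 annotation). This rule gave 255 of the 66841 merged peaks, spread over 47 of the 52 genes. No merged peak lay at Sema3a, Plxna4, Plxnd1, Ephb1 or Robo3. Of the 47 genes, 18 were ligands, 22 receptors, 5 CRMPs and 2 adhesion molecules.

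H3K27ac, an acetylation of histone H3 that marks active promoters and enhancers, was measured by ChIP-seq in A2lox-NeuroD1 cells, a derivative of the A2Lox mouse ES cell line in which doxycycline switches on a transgene for HA-tagged NeuroD1, a neurogenic bHLH factor. The cells had been moved off their fibroblast feeders before the experiment. Libraries R1 and R2 were made from uninduced cells (0 h) and from cells kept in 500 ng/ml doxycycline for 12 h or 48 h, and every sample carried the transgene. The sources do not say that R1 and R2 were separate cultures, and p-values then measure the spread between these libraries, which may be technical.

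Axon guidance molecules steer growing axons: semaphorins act through plexins and neuropilins, ephrins through Eph receptors, Slits through Robo receptors, and netrin 1 through Dcc, neogenin (Neo1) and the Unc5 family. CRMPs carry such signals to the cytoskeleton inside the growth cone. Nrcam and Cntn2 are neuronal cell adhesion molecules of the immunoglobulin superfamily. NeuroD1 binds E-boxes, sites of the form CANNTG.

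The central 300 bases are printed for 5 member peaks, which had the 3 largest gains and the 2 largest losses from 0 h to 48 h among changed peaks of 20 or more reads. They are mm10 plus-strand sequences of RefSeq's GRCm38 copy, with E-boxes CANNTG in capitals, and none overlapped an exon of its gene. Their values are given with the genes.
Nrcam intron, chr12:44343214-44343513: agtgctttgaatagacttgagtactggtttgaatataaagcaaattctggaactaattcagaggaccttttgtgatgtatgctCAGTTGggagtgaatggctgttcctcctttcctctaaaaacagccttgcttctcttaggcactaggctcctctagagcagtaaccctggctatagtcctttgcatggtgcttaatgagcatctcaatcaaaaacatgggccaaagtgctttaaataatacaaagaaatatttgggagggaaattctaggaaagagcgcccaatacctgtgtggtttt
Nrcam intron, chr12:44535540-44535839: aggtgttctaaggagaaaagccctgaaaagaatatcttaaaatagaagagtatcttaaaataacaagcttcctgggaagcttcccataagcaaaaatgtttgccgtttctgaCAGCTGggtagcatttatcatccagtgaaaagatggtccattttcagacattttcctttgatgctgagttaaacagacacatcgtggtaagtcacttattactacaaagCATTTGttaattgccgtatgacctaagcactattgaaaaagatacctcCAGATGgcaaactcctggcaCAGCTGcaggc
Sema3e intron, chr5:14048664-14048963: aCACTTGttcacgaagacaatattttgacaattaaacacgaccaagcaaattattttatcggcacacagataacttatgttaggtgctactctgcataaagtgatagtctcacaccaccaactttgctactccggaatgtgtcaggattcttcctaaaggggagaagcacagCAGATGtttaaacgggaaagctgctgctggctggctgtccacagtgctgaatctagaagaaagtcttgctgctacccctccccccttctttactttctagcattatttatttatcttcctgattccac
Ntn1 promoter peak, chr11:68399801-68400100: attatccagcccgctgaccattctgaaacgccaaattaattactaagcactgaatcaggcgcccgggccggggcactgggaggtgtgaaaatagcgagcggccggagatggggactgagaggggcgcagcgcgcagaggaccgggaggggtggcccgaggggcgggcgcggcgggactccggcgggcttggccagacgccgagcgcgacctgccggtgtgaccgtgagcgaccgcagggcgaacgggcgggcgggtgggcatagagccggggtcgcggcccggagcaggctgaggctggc
Ephb2 intron, chr4:136776661-136776960: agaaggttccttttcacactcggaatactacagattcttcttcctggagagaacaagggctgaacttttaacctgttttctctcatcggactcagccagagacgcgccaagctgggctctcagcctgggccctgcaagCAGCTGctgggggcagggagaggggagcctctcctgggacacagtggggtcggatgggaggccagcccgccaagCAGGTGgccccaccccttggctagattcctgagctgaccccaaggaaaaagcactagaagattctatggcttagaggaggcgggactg
These windows held 1, 4 and 2 E-boxes in the gained peaks and 0 and 2 in the lost ones. The second Nrcam window held CAGCTG at 2 places and CAGATG at 1, and the Sema3e window held 1 CAGATG.

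Each library had between 6283103 and 8112895 reads in merged peaks. Scaled reads are the counts brought to a common depth, the mean of these 6 totals. Peaks of these genes held a median of 33.2 reads, against 30.5 for all merged peaks, and 241 of the 255 had at least 10 reads in 2 libraries. In peaks with at least 20 reads, the SD of the log2 ratio of R1 to R2 was 0.37 for the 0 h pair, 0.32 for the 12 h pair and 0.55 for the 48 h pair, so the late libraries were the least alike. At 48 h, R1 lay above R2 in 55 of the 61 promoter peaks of these genes and in 62 of their 169 intronic peaks, against 38 and 102 at 0 h. Over all merged peaks at 48 h, R1 lay above R2 in 11872 of 16416 promoter peaks and in 18800 of 50425 peaks away from promoters.

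The first comparison asked which regulatory regions of axon guidance genes changed H3K27ac after NeuroD1 induction. At 48 h, 48 of the 255 peaks (18.8%) had gained H3K27ac and 22 (8.63%) had lost it relative to 0 h, where 8.56% and 5.45% of all merged peaks gained and lost (edgeR's quasi-likelihood test, Benjamini-Hochberg adjusted p under 0.05). At 12 h, 28 peaks (11.0%) had gained and 19 (7.45%) had lost it, against 9.93% and 6.03% of all merged peaks. With edgeR's TMM factors in place of library totals, 31 gained and 11 lost at 12 h, against 11.3% and 3.95% of all merged peaks. With DESeq2, 18 gained and 4 lost at 12 h, against 6.07% and 1.85% of all merged peaks. From 12 h to 48 h, 46 peaks (18%) were gained and 20 (7.84%) were lost, against 10.7% and 8.43% of all merged peaks.

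These counts moved with single libraries. At 48 h vs 0 h, 70 peaks were called in all, against 39 without 0 h R1 and 17 without 0 h R2. At 12 h vs 0 h, the 47 calls became 17 and 6 without these libraries, 18 and 16 without 12 h R1 or R2, and 83 without either 48 h library. Between 12 h and 48 h, the 66 calls became 20 and 13 without 12 h R1 or R2 and 112 without 48 h R2. At 48 h vs 0 h, 14 gains and 3 losses (1 Ntn1 peak and 2 Ephb2 peaks) were called whichever library was left out.

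Reads summed over all peaks of a gene gave a single value per gene. At 48 h, 10 gene sums were higher and 10 lower than at 0 h, where 6.21% and 4.72% of the gene sums of 15390 protein-coding genes were called higher and lower. At 12 h, 8 were higher and 7 lower, against 6.62% and 29.1% of all gene sums. The median of all gene sums was shifted by -0.31 (log2) at 12 h vs 0 h, against 0.03 at 48 h vs 0 h. TMM factors, which bring the shift at 12 h to -0.02, called 9 higher and 1 lower, against 10.9% and 4.04% of all gene sums. DESeq2 called 11 higher and 0 lower at 12 h, against 10.2% and 1.7% of all gene sums. All 8 gene sums called higher at 12 h (Sema3e, Sema6d, Plxna2, Epha4, Epha7, Robo1, Crmp1 and Nrcam) were called higher with TMM as well, whereas Unc5a was the only one called lower by both edgeR fits. From 12 h to 48 h the median of all gene sums was 0.34, and 17 member sums were higher and 6 lower, against 39.0% and 6.97% of all gene sums. TMM factors gave 10 higher and 15 lower in that comparison, against 10.1% and 14.6% of all gene sums. The calls of 3 gene sums, Crmp1, Nrcam and Ntn1, held at 48 h vs 0 h whichever library was left out, and those of Crmp1 and Nrcam held at 12 h as well. The 20 calls at 48 h became 8 and 3 without 0 h R1 or R2 and 32 without 48 h R2, the 15 at 12 h became 4, 2, 2 and 3 without 0 h or 12 h R1 or R2 and 34 without either 48 h library, and the 23 between 12 h and 48 h became 1 and 0 without 12 h R1 or R2. In bulk chromatin, more H3K27ac per cell and a larger share of cells with the mark cannot be told apart.

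**Figure D1:**
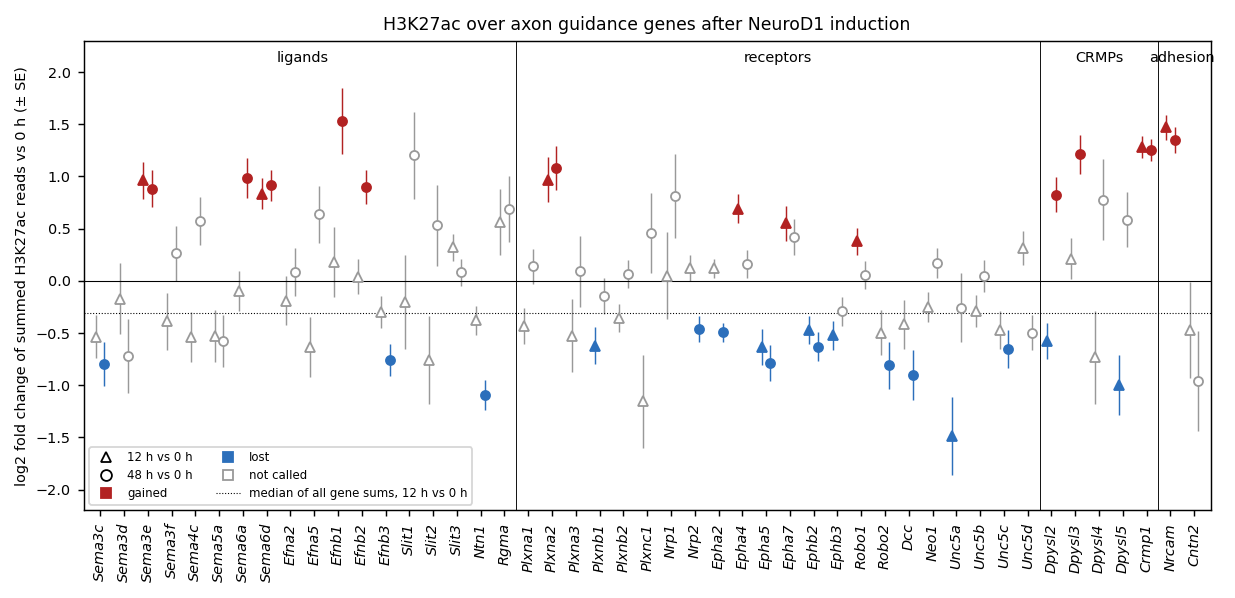
Log2 fold change vs 0 h (± SE) of the H3K27ac reads summed over each of the 47 genes with a peak, by role, at 12 h (triangles) and 48 h (circles), with calls by edgeR in colour. Nrcam (1.47 and 1.35) and Crmp1 (1.28 and 1.25) were higher at both times, Ntn1 was lower at 48 h (-1.09), and the dotted line marks the median of all gene sums at 12 h (-0.31).

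A group of the lost peaks shared a repeated sequence. Over 80% of the bases were repeat-masked in 17 of the 255 peaks, all of them intronic. Of these, 11 were lost at 48 h and 0 gained, whereas the other 238 peaks held 48 gains and 11 losses. Among all merged peaks, 18.8% of the 7254 repeat-masked peaks were lost at 48 h against 3.82% of the others. By BLASTN, 14 of the 17 matched another of them at 96.4% to 98.8% identity over 559 to 1351 bases, and these 14 included all 11 lost peaks. The longest match joined peaks in Epha5 and Sema3c, and 60 bases from its centre were identical in both (Epha5, chr5:84378084-84378143, plus strand; Sema3c, chr5:17609284-17609343, minus strand), shown here because a short read from such a stretch has no unique place.
Epha5 and Sema3c: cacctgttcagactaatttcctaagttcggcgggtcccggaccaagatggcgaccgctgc
How reads with several equally good matches were placed is not given in the sources used here, so values of these peaks are uncertain.
The 11 losses lay in Sema3c, Sema5a, Epha5, Robo1, Robo2, Dcc, Unc5c, Unc5d and Nrcam, with log2 fold changes between -1.12 and -0.75. Without repeat-masked peaks, 3 genes (Sema3c, Robo2 and Dcc) had gene sums that could no longer be called because no peak was left. Epha5 and Unc5c lost their calls at 48 h. Of the 44 member gene sums left, 10 were higher and 5 lower than at 0 h, against 6.46% and 4.05% of all gene sums without such peaks.

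**Figure D2:**
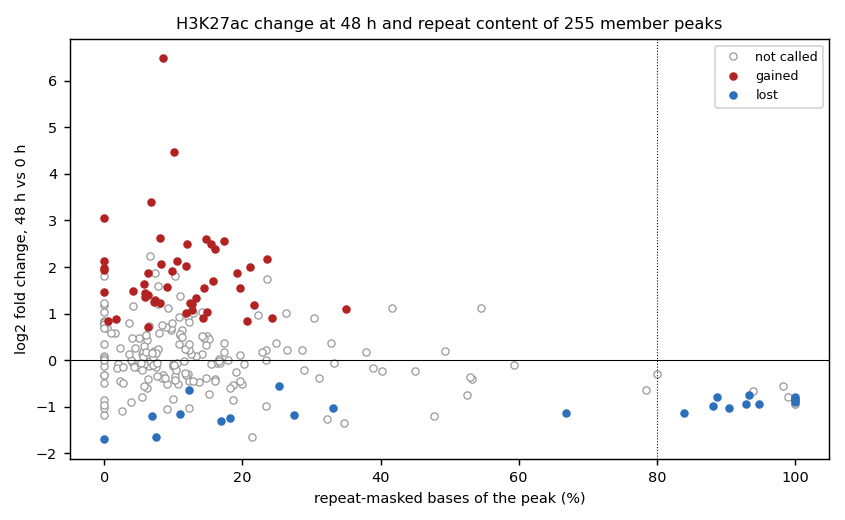
Share of repeat-masked bases (x, percent) and log2 fold change at 48 h vs 0 h (y) for each of the 255 peaks, coloured by call. To the right of the dotted line at 80% lie 17 peaks, of which 11 were lost and 0 gained.

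Ligand genes held more gained peaks than any other role. At 48 h, 23 of their 92 peaks had gained and 7 had lost H3K27ac (25% and 7.61%, median log2 fold change 0.53), compared with 9 gains and 14 losses among the 139 peaks of receptor genes (6.47% and 10.1%, median -0.09), where 8.56% and 5.45% of all merged peaks gained and lost. With TMM factors there were 29 gains and 6 losses in ligand genes and 12 and 12 in receptor genes, against 9.69% and 4.05% of all merged peaks. With DESeq2 there were 10 and 2 in ligand genes and 5 and 6 in receptor genes, against 5.37% and 1.54% of all merged peaks. Without repeat-masked peaks, ligand genes had 23 gains and 5 losses in 88 peaks (26.1% and 5.68%), and receptor genes 9 gains and 6 losses in 127 (7.09% and 4.72%), against 9.54% and 3.82% of all merged peaks outside repeats. The receptor shares were thus near those of all peaks. CRMP genes had 8 gains and 0 losses in 14 peaks (median 1.22), and the adhesion genes 8 gains and 1 loss in 10 (median 2.31). The median over all merged peaks was -0.04. The differences between these groups were not tested.

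Among the semaphorins, secreted or membrane-bound guidance cues, Sema3e, Sema6a and Sema6d gained H3K27ac by 48 h. Sema3e, the ligand of Plxnd1, held 14 peaks, of which 7 were gained and 0 lost, though DESeq2 did not call all of these gains. Its summed signal was 1350 and 979 scaled reads in the 0 h libraries, 2140 and 2400 in the 12 h libraries and 1770 and 2520 in the 48 h libraries, with all 4 later libraries above both at 0 h. The sum rose by 0.96 ± 0.18 (log2, SE) at 12 h (edgeR adjusted p = 0.0066) and 0.88 ± 0.18 at 48 h (edgeR adjusted p = 0.0088).

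The Sema3e peaks did not share a time course. The peak 14.3 kb into the gene (chr5:14037618-14041463) held 285 and 155 reads at 0 h, then 563 and 685 (12 h) and 395 and 608 (48 h). The peak at 23.5 kb (chr5:14048241-14049387), whose sequence is shown above, held 15.4 and 6.37 at 0 h, then 11.8 and 12.0 at 12 h and finally 48.9 and 73.9 at 48 h. The latter differed by 0.12 at 12 h vs 0 h, without a call, and rose by 2.37 (log2) between 12 h and 48 h (edgeR adjusted p = 0.00024). A further peak at 18.1 kb went from 18.5 and 11.7 to 23.6 and 24.8 and then to 56.6 and 64.5. The promoter peak itself was at 136 and 123 reads at 0 h and at 212 and 177 at 48 h, a change of 0.58 ± 0.21 that did not pass the test against 0 h (edgeR adjusted p = 0.071).

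Sema6d, a transmembrane semaphorin, carried an intronic peak 55.7 kb from the gene start (chr2:124144651-124146653) with 49.3 and 23.4 reads in the 0 h libraries, 198 and 188 in the 12 h libraries and 165 and 218 in the 48 h libraries. It gained 2.40 ± 0.28 (log2) by 12 h (edgeR adjusted p = 2.2e-06) and differed by -0.01 between 12 h and 48 h. The Sema6a promoter, in contrast, held 222 and 157 reads at 0 h, then 185 and 180 (12 h) and 421 and 350 (48 h), so that both 48 h libraries lay above the other 4. Its gain of 1.02 ± 0.20 at 48 h passed the test (edgeR adjusted p = 0.001).

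The remaining semaphorins showed smaller or uncertain changes. The promoter of Sema4c rose by 0.71 ± 0.22 (log2) at 48 h, with 738 reads in R1 and 398 in R2, and that peak also overlaps Fam178b. Sema3f gained 1 intronic peak. The single Sema3c peak, 1 of 2 peaks of Sema5a and 1 of 2 of Sema3d were repeat-masked.

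Ephrins, the membrane-bound ligands of Eph receptors, gained at Efnb1 and Efnb2. The Efnb1 promoter (chrX:99135259-99137408) held 65.7 and 56.3 reads at 0 h, then 66.5 and 58.9 at 12 h and finally 231 and 114 at 48 h. Both late values were above the other 4 but differed from each other by more than the earlier pairs did. The gain was 1.48 ± 0.29 (log2, edgeR adjusted p = 0.00088). At Efnb2, the intronic peak 5.27 kb from the start went from 122 and 87.0 reads to 148 and 149 and then to 246 and 278, a gain of 1.33 ± 0.22 at 48 h (edgeR adjusted p = 0.00015). Efna5 gained 1 intronic peak, and its sum passed the test between 12 h and 48 h (1.27), while Efna2 had no changed peak. The Efnb3 sum fell by 0.76 at 48 h, and its one lost peak overlaps the promoter of Dnah2. Counted over the gene body alone, the Efnb3 sum did not pass (-0.43 ± 0.35, edgeR adjusted p = 0.52).

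Ntn1, which encodes netrin 1, lost H3K27ac. Its sum was 564 and 557 reads in the 0 h libraries, 451 and 413 in the 12 h libraries and 298 and 231 in the 48 h libraries, with no overlap between time points. It fell by 1.09 at 48 h (edgeR adjusted p = 0.00079), a call kept whichever library was left out. Of the 4 Ntn1 promoter peaks, the strongest, at 14.0 kb, held 164 and 150 reads at 0 h and 127 and 64.5 at 48 h. Its change of -0.735 ± 0.26 at 48 h was not called (edgeR adjusted p = 0.061). The 1 promoter peak lost at 48 h, 0.872 kb from the start (chr11:68399158-68400744), held 164 and 205, then 103 and 87.4, then 68.8 and 45.6 reads. It was the only one of the 255 peaks lost at both steps, with -0.96 at the first (edgeR adjusted p = 0.0086) and -0.75 at the second (edgeR adjusted p = 0.047), a pattern found in 0.0105% of all merged peaks. The first call was lost without 0 h R2, 12 h R1 or 12 h R2. The second was lost with TMM factors, with DESeq2, with only the 4 libraries compared and without any single library other than 48 h R1, so that the loss at both steps rests on a marginal call. Intronic peaks at 7.4 kb and 9.81 kb were lost at 48 h and not called at 12 h. The gene had 8 peaks, of which 3 were lost and 0 gained.

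Among the Slit and RGM genes, Slit1, Slit3 and Rgma had called peaks at 48 h vs 0 h, none of which was called with DESeq2. Slit1, which encodes a secreted Robo ligand, gained at its promoter, where R1 and R2 read 13.3 and 9.55 at 0 h and 51.1 and 18.9 at 48 h (1.56 ± 0.47, edgeR adjusted p = 0.026). The 19 peaks of Slit3 included 3 gains and 1 loss, at 30.6 kb, where the reads went from 70.8 and 63.7 to 25.5 and 32.7. The single Slit2 peak, at its promoter, did not pass at 48 h vs 0 h. Rgma, which encodes a ligand of neogenin, gained 1 of 4 promoter peaks, with 78.8 and 36.1 reads at 48 h against 29.8 and 18 at 0 h.

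**Figure D3:**
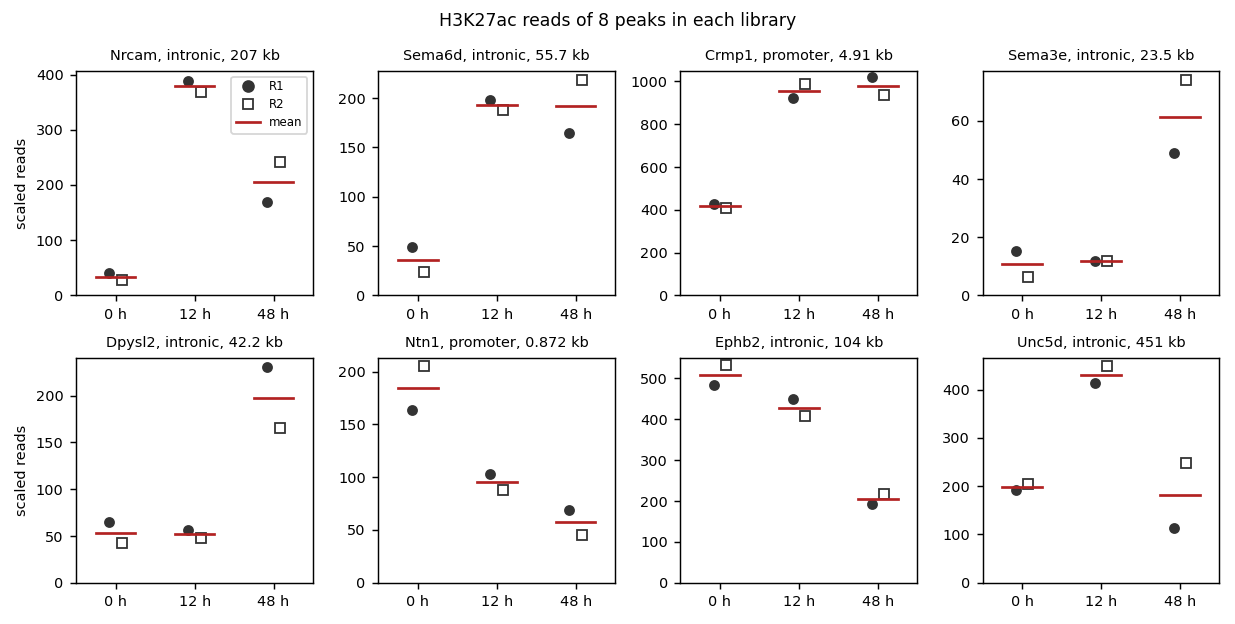
Scaled H3K27ac reads (y, from 0) of 8 peaks in libraries R1 (filled circles) and R2 (open squares) at 0 h, 12 h and 48 h, with the mean as a bar and the distance from the gene start in each title. The Nrcam, Sema6d and Crmp1 peaks were up at 12 h, those of Sema3e and Dpysl2 at 48 h only, the Ntn1 and Ephb2 peaks went down, and the Unc5d peak was highest at 12 h (413 and 449).

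Plxna2, a receptor for semaphorin signals, was the receptor gene whose sum rose at 48 h. Its reads were 110 and 105 at 0 h, then 254 and 168 (12 h) and 220 and 235 (48 h), and the sum was higher by 0.97 ± 0.21 and 1.08 ± 0.21 (log2, edgeR adjusted p = 0.011 and 0.0082). The intronic peak at 128 kb went from 17.4 and 18 reads to 54.7 and 45.1 and then 41.1 and 63.6. The Plxnb1 promoter read 585 and 775 at 0 h, then 418 and 446 at 12 h and finally 744 and 492 at 48 h, a loss at 12 h (-0.65 ± 0.19, edgeR adjusted p = 0.021). That peak also overlaps Ccdc51, and its loss was not called with DESeq2 or with a GC offset. Over all promoter peaks, the median change at 12 h was -0.38. Plxnb2 lost 3 of 7 peaks at 12 h. One of these lay beside the gene near Mapk11 and read 36.9 and 23.4 at 0 h against 15.0 and 3.68 at 12 h (-1.73 ± 0.56, edgeR adjusted p = 0.037). The Plxnb2 promoter peak at 7.52 kb held 118 and 92.3 reads in the 0 h libraries, 59.0 and 34.0 in the 12 h libraries and 114 and 78.2 in the 48 h libraries. Plxna1 lost an intronic peak at 12 h that regained by 48 h, a loss not called with TMM factors, and Plxna3 and Plxnc1 had 1 promoter peak each with no call against 0 h.

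Neuropilins are co-receptors of class 3 semaphorins. Nrp2 had 22 peaks, more than any other member, and its strongest, at 68.3 kb (chr1:62764537-62778726) held 1680 and 1600 reads at 0 h, then 1740 and 1840 (12 h) and 853 and 1250 (48 h). It was lost at 48 h by -0.64 ± 0.16 (edgeR adjusted p = 0.0076). The call of the whole Nrp2 sum (-0.47) was absent with TMM factors, with DESeq2 and with only the 4 libraries compared. Nrp1 had 3 promoter peaks with no call.

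Eph receptors, the tyrosine kinases that bind ephrins, went in different directions. Ephb2 lost 4 of its 12 peaks by 48 h and gained none. Its strongest intronic peak, 104 kb from the start (chr4:136729337-136734817), held 484 and 533 reads at 0 h, then 449 and 407 at 12 h and finally 193 and 216 at 48 h. That loss of -1.31 ± 0.18 (edgeR adjusted p = 1.3e-05) came between 12 h and 48 h (-1.06, edgeR adjusted p = 0.00035). The peaks at 70.5 and 72.1 kb had fallen by 12 h and were not called between 12 h and 48 h. The former went from 85.2 and 87.0 reads to 55.8 and 26.7 and then to 41.1 and 35.3. The latter went from 48.2 and 47.8 to 22.5 and 17.5 and then to 21.1 and 19.8. Neither loss at 12 h was called with DESeq2. The peak at 59.2 kb, shown above, went from 49.3 and 42.5 through 28.9 and 18.4 to 16.7 and 12.9. The Ephb2 promoter held 174 and 158 reads at 0 h and 238 and 136 at 48 h, with no call.

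Epha4 went up at 12 h and came down again. Its sum was 2400 and 2120 reads in the 0 h libraries, 3700 and 3610 in the 12 h libraries and 2140 and 2920 in the 48 h libraries. Both 12 h libraries lay above the other 4, with a rise of 0.69 ± 0.14 (edgeR adjusted p = 0.0082) and a later difference of -0.53 ± 0.14 (edgeR adjusted p = 0.012). The first call was lost without any one of the 0 h or 12 h libraries. Of 18 peaks, 5 intronic ones were gained at 12 h, and 1 of these was also gained at 48 h. The one that stayed up, at 19.5 kb (chr1:77492941-77498163), read 218 and 196, then 480 and 493, then 373 and 469. The widest, at 61 kb, read 893 and 742, then 1590 and 1520, then 602 and 1010.

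Epha7 showed the same order at 2 peaks near its 3′ end. The peak at 154 kb held 49.3 and 39.3 reads at 0 h, then 104 and 113 (12 h) and 41.1 and 62.8 (48 h). Epha2 had the largest signal of the 47 gene sums, and its lower sum at 48 h (-0.49) came with the wide peak upstream of the gene (4500 and 4670 reads at 0 h, 2990 and 3250 at 48 h). Over the gene body alone the Epha2 sum did not pass (-0.27 ± 0.11, edgeR adjusted p = 0.14). An intronic Epha2 peak at 10.4 kb fell by 1.20 (log2) at 12 h, from 32.8 and 26.5 reads to 12.9 in each library (edgeR adjusted p = 0.036), and its call was lost with DESeq2. The Ephb3 sum was lower at 12 h (-0.52), a call absent with TMM factors. The promoters of Epha2 and Ephb3 were not called at 48 h, and Epha5 had its called peak in a repeat.

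**Figure D4:**
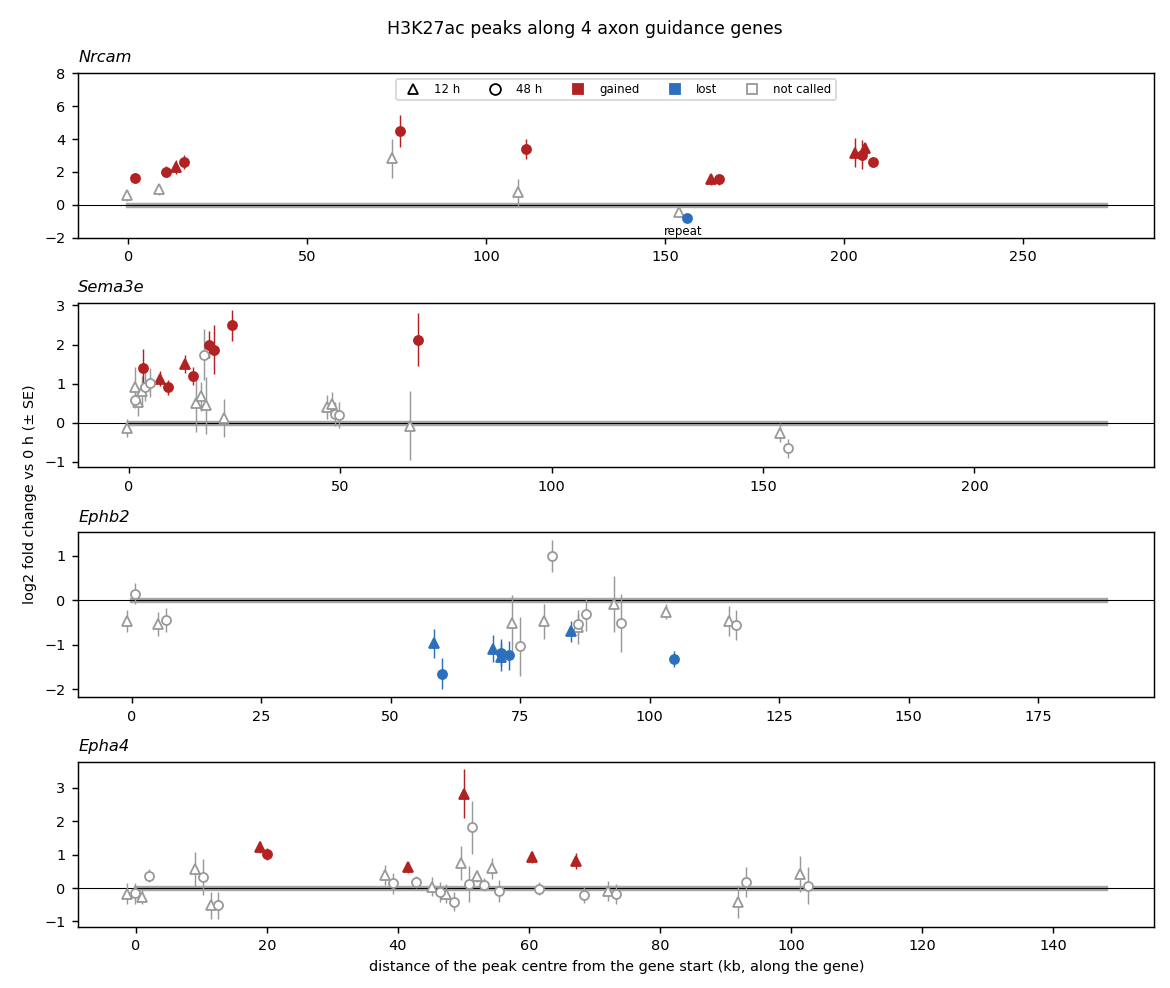
Log2 fold change vs 0 h (± SE, y) of each H3K27ac peak at 12 h (triangles) and 48 h (circles) against the distance of its centre from the gene start in kb (x) for Nrcam, Sema3e, Ephb2 and Epha4, with the gene body as a grey bar. Nrcam gained 8 of 9 peaks at 48 h and lost the repeat-masked one, Sema3e gained 7 of 14, Ephb2 lost 4 of 12, and Epha4 gained 5 of 18 at 12 h.

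Robo1, the Slit receptor, had 16 peaks with changes in both directions. The peak at 479 kb (chr16:72787362-72788180) held 17.4 and 11.7 reads at 0 h, then 16.1 and 30.4 at 12 h and finally 54.4 and 76.5 at 48 h, a gain of 2.17 ± 0.36 (edgeR adjusted p = 0.0002). The stronger peak at 703 kb was highest at 12 h, with 392 and 371 reads against 248 and 185 before induction and 115 and 201 in the 48 h libraries. The peak at 255 kb had 0 reads in both 0 h libraries and 17.8 and 5.16 at 48 h. Both peaks of Robo2 were repeat-masked.

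Among the netrin receptors, Unc5d held a large transient peak. At 451 kb (chr8:28767182-28770335), it read 192 and 205 in the 0 h libraries, 413 and 449 in the 12 h libraries and 114 and 249 in the 48 h libraries, up by 1.12 ± 0.24 (edgeR adjusted p = 0.0023) and then down, with -1.23 (edgeR adjusted p = 0.0012). Of its bases, 59.3% were repeat-masked. The Unc5d peak at 352 kb, in a repeat, went from 63.6 and 75.4 reads at 0 h to 27.8 and 35.3 at 48 h. The Unc5c promoter rose from 13.3 and 12.7 reads at 0 h to 48.9 and 24.9 at 48 h (1.46 ± 0.41, edgeR adjusted p = 0.017), while the 2 intronic Unc5c peaks were repeat-masked and lost. With those left out, the Unc5c sum was 1.47 ± 0.46 higher at 48 h and not called (edgeR adjusted p = 0.066). Unc5a dipped at 12 h, where its promoter peak had 5.36 and 1.84 reads against 14.4 and 13.8 at 0 h. This loss at few reads was not called with DESeq2 or with a GC offset. Neo1 and Unc5b each had 1 intronic peak lost at 12 h, not called with TMM factors, and no peak called at 48 h vs 0 h. The 1 Dcc peak was repeat-masked.

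The CRMP genes encode cytoplasmic proteins that bind tubulin and act downstream of semaphorin 3 signals. Crmp1 was the earliest to rise, from 469 and 439 reads at 0 h to 1070 and 1140 at 12 h and 1110 and 1060 at 48 h. Its gain of 1.28 ± 0.11 at 12 h (edgeR adjusted p = 9.2e-05) was followed by 1.25 ± 0.11 at 48 h. The wide promoter peak (chr5:37243657-37250046) held 429 and 410, then 922 and 988, then 1020 and 937 reads. An intronic Crmp1 peak at 9.63 kb went from 16.4 and 12.7 reads to 69.7 and 73.6 and then to 43.3 and 66.2, a gain of 2.29 ± 0.34 at 12 h (edgeR adjusted p = 4.6e-05). Crmp1 and Nrcam were the only member genes called higher at both 12 h and 48 h vs 0 h whichever library was left out.

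Dpysl2 and Dpysl3 rose late. The Dpysl2 intronic peak at 42.2 kb (chr14:66825381-66827661) held 64.7 and 42.5 reads at 0 h, then 56.8 and 47.8 (12 h) and 231 and 165 (48 h), a gain of 1.92 (log2) between 12 h and 48 h (edgeR adjusted p = 5.7e-05). Its promoter went from 323 and 330 to 209 and 193 and then to 542 and 379, lost at 12 h and then gained. The 1 Dpysl3 peak, an internal promoter, read 97.5 and 101, then 117 and 113, then 252 and 209 (1.21 ± 0.22 at 48 h, edgeR adjusted p = 0.00036). Dpysl5 dipped at its promoter at 12 h, with 50.4 and 50.6 reads against 112 and 99.8 at 0 h, and stood at 191 and 105 at 48 h. Its intronic peak at 7.15 kb read 5.13 and 3.18 at 0 h, then 2.14 and 1.84 at 12 h and finally 28.9 and 19.8 at 48 h. Dpysl4 had 1 weak promoter peak, called between 12 h and 48 h only.

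Nrcam showed the largest number of gained peaks. Its sum was 261 and 243 reads in the 0 h libraries, 702 and 695 in the 12 h libraries and 613 and 670 in the 48 h libraries, a rise of 1.47 ± 0.12 by 12 h (edgeR adjusted p = 9.2e-05) and 1.35 ± 0.12 by 48 h (edgeR adjusted p = 9e-05). Most of the early signal came from the intronic peak at 207 kb (chr12:44533466-44537914), the second sequence above. It read 40.0 and 27.6 at 0 h, then 389 and 369 (12 h) and 169 and 242 (48 h), so that all later libraries were above 0 h and 48 h was below 12 h. That peak rose by 3.48 ± 0.25 at 12 h (edgeR adjusted p = 6.5e-09) and then differed by -0.88 between 12 h and 48 h (edgeR adjusted p = 0.0058).

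Of the other Nrcam peaks, some were gained by 12 h and others were called only at 48 h. The promoter held 36.9 and 29.7 reads at 0 h, then 47.2 and 52.4 at 12 h and finally 141 and 69.6 at 48 h. The peak at 9.49 kb held 19.5 and 15.9, then 36.5 and 32.2, then 76.6 and 68.8. The peak at 14.5 kb, the first sequence above, read 11.3 and 7.43 at 0 h and 45.0 and 47.8 at 12 h, and its 48 h libraries were far apart at 33.3 and 81.7. The peak at 164 kb went from 32.8 and 17.0 reads at 0 h to 69.7 and 76.4 at 12 h (1.54 ± 0.32, edgeR adjusted p = 0.0022), and stood at 58.8 and 86.8 at 48 h. At 110 kb, a peak with 3.08 and 2.12 reads at 0 h and 6.43 and 2.76 at 12 h reached 34.4 and 23.2. The repeat-masked peak at 155 kb was lost at 48 h, and without it the Nrcam sum was 2.20 ± 0.17 higher at 48 h. Cntn2 had 1 weak intronic peak (14.4 and 15.9 reads at 0 h) with no call.

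Promoter and intronic peaks were counted apart, and the difference between them was not tested. At 12 h, 2 of 61 promoter peaks had gained and 7 had lost H3K27ac, where 2.4% and 17.0% of all promoter peaks did so. At 48 h, 12 had gained and 1 had lost it, against 4.87% and 2.88% of all promoter peaks. From 12 h to 48 h, 24 gained and 1 lost, against 27.4% and 2.61% of all promoter peaks, so that this count of gains (39.3%) stood beside a wide rise of promoters. Of the 169 intronic peaks, 22 gained (13.0%) and 10 lost (5.92%) at 12 h, against 12.4% and 2.45% of all merged peaks away from promoters, so that the share of gains was near that of all such peaks. At 48 h, 34 gained (20.1%) and 19 lost (11.2%), or 34 and 8 without repeat-masked peaks, against 9.76% and 6.29% of all peaks away from promoters. Promoter counts at 48 h rest on libraries that were apart: R1 summed to 1.43 times R2 over these 61 peaks, against 1.14 times over all promoter peaks.

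In the ligand genes, 17 of 54 intronic peaks (31.5%) and 5 of 24 promoter peaks (20.8%) were gained at 48 h. In the receptor genes, 5 of 100 intronic and 3 of 28 promoter peaks (10.7%) were gained and 13 intronic ones were lost. Without those in repeats, 5 of 88 receptor intronic peaks (5.68%) were lost and 5 gained. Over all merged peaks, 9.76% of those away from promoters and 4.87% of promoter peaks gained at 48 h, and 6.29% of the former lost. By level, the strongest promoter peaks per length at 0 h were those of Plxnb1 (207 scaled reads per kb of peak), Neo1 (199), Plxna1 (151) and Epha2 (140), all receptors. The Plxnb1 peak also overlaps Ccdc51. The weakest was that of Slit1 (13.5). At 48 h the Nrcam promoter had gone from 19.9 to 62.8 reads per kb and the Crmp1 promoter from 65.6 to 153.

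**Figure D5:**
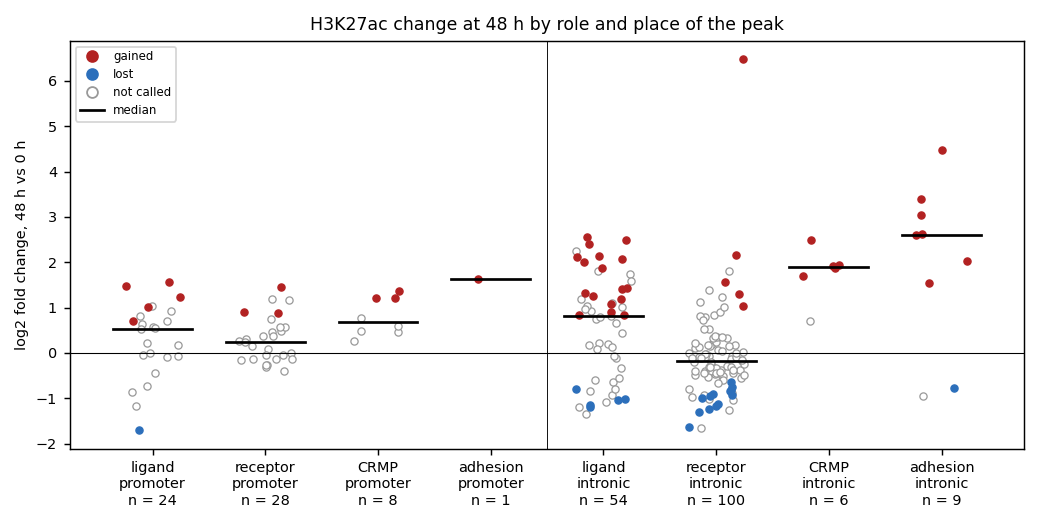
Log2 fold change at 48 h vs 0 h (y) of each promoter and intronic peak by role of the gene, with the median as a black bar, gains in red and losses in blue, and n peaks under each group. Intronic peaks of ligand genes have a median of 0.82 with 17 of 54 gained, and those of receptor genes a median of -0.19 with 5 of 100 gained. The topmost point is a Robo1 peak with 0 reads at 0 h, whose fold depends on the prior count.

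Over the 3 time points, 16 peaks were gained at both 12 h and 48 h vs 0 h, 12 were gained at 12 h and not called at 48 h, and 32 were gained at 48 h and not called at 12 h. These were 6.27%, 4.71% and 12.5% of the peaks, against 3.85%, 5.98% and 4.69% of all merged peaks. Between steps, 8 peaks (3.14%) were gained and then lost and 6 (2.35%) lost and then gained, against 3.7% and 3.04% of all merged peaks. No member peak gained at both steps, a course taken by 0.455% of all merged peaks.

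E-boxes were counted in the central 500 bases of each peak. CAGATG or its reverse complement CATCTG was present in 20 of the 48 peaks gained at 48 h (41.7%), in 48 of 185 peaks without a call (25.9%) and in 1 of the 22 lost peaks (4.55%), compared with 29.3% of all merged peaks. Of the lost peaks, 11 were near copies of one another in a repeat, so the share over lost peaks does not count separate sequences. Outside the promoters of their own gene, 44.4% of 36 gained member peaks and 32.1% of 137 without a call held CAGATG or CATCTG. Over all merged peaks away from promoters of any protein-coding gene, the share was 31.7%. Over all member peaks, CAGCTG was present in 15 of the 48 gained (31.2%), 47 of the 185 without a call (25.4%) and 6 of the 22 lost (27.3%). It was in 25.2% of all merged peaks. At 12 h, 14 of 28 gained peaks held CAGATG or CATCTG. These are descriptions of letters in a window, and no binding was measured here.

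A wider set of 64 axon guidance genes outside the 52, among them semaphorins, Ephs, ephrins and cytoskeletal effectors, gave 59 genes with a peak. At 48 h, 8 of their gene sums (13.6%) were higher and 3 (5.08%) lower than at 0 h, against 6.21% and 4.72% of all gene sums, so that the share of lower sums was near that of all genes. Chn1, which encodes a Rac GAP, rose by 1.38, Fyn, a Src-family kinase, by 1.08, and Gap43, a growth cone protein, by 0.91, while Sema4d fell by 0.85 and Dock1 by 0.74 (edgeR adjusted p = 0.00017, 0.0039, 0.011, 0.00083 and 0.0024). The other sums called higher were those of Pak3 (1.195), Trio (0.965), Rgmb (0.95), Srgap2 (0.943) and Sema5b (0.451). The other lower sum was that of Ntng1 (-0.758).

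Markers of cell types moved with time. Gene sums of 7 ES cell genes totalled 22500 and 22700 reads in the 0 h libraries, 25600 and 25700 in the 12 h libraries and 14700 and 19000 in the 48 h libraries. Tfcp2l1, Esrrb and Dppa5a were called lower at 48 h vs 0 h. Pou5f1 (-0.21), Sox2 (-0.25), Nanog (-0.27) and Zfp42 (-0.38) had no call there, and Pou5f1 was called higher at 12 h (0.35). For neurons, 6 of 8 markers had a peak (Dcx and Snap25 had none), and their sum was 2180 and 2040 at 0 h and 2950 and 2870 at 48 h, with Map2, Tubb3 and Rbfox3 called higher. Of the other neuron markers at 48 h vs 0 h, Elavl4 (0.28), Stmn2 (-0.09) and Elavl3 (-0.58) had no call, while at 12 h Elavl4 was called higher (0.55) and Elavl3 lower (-1.06). Of 7 feeder fibroblast markers, 2 had a peak, with 244 to 315 reads in all, and of 4 endoderm markers 1 did. The part of these shifts in the results above was not tested.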

How the data were processed

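H3K27ac ChIP-seq libraries of 6 samples (R1 and R2 at 0 h, 12 h and 48 h) were analysed. The authors deposited raw read counts per library in merged MACS2 peaks, not normalised, and the submitters' processing notes also name Bowtie2 and SAMtools 0.1.19. How reads with several matches were placed is not given in the sources used here. Library totals over peaks ran from 6283103 to 8112895. Counts were tested with edgeR 4.0.16 (quasi-likelihood test, library totals as offset, all 6 libraries, 1 fit of time over all 66841 peaks and 1 over 15390 gene sums) in R 4.3.3, with Benjamini-Hochberg adjustment over all features and a threshold of 0.05. A promoter peak overlaps 2 kb on either side of a start site of the gene. Repeat masking and sequences came from RefSeq's GRCm38 genome (pysam 0.24.0, BLASTN 2.17.0), and plots from matplotlib 3.10.9.

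The naming rule took every member gene by its sum and promoter peak (all sums are plotted, and promoter peaks not described are in the counts), and, among changed peaks with at least 20 reads and no overlap with 0 h, the 10 largest gains and losses at 48 h and 5 at 12 h. Peaks with fewer reads, and others outside this rule, were named after their values were seen. Members and lists were chosen with earlier results of these data known. Alternatives were TMM factors, DESeq2 1.42.0, a count filter, a replicate block, the 4 libraries compared, a minimum 2-fold change, a GC offset, each library left out, the gene body alone and a 1 kb promoter window. Leaving out repeat-masked peaks or peaks shared with another gene was chosen after seeing the data.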

Additional observations from a re-analysis of the deposited data

Results flagged for a closer look

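The changes from 0 h were unequal at 12 h and 48 h in 66 peaks and 23 gene sums of the axon guidance genes, by edgeR's test of the difference between these time points. Among the peaks, 8 were gained and then lost, and 6 were lost and then gained. Of the gene sums that were called at both steps in opposite directions, Epha4 rose and then fell (-0.53 between 12 h and 48 h), and Plxnb1 (0.48), Unc5a (1.23), Dpysl2 (1.40) and Dpysl5 (1.58) fell and then rose. The median of all gene sums moved by 0.34 in this comparison, and with TMM factors Epha4 was the only one of these 5 sums called at both steps. With these factors the earlier fall was not called for Plxnb1 (-0.34), Dpysl2 (-0.295) and Dpysl5 (-0.71), nor the later rise for Plxnb1 (0.16) and Unc5a (0.93).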

How the results depend on the processing

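Called peaks numbered 47 (12 h vs 0 h), 70 (48 h vs 0 h) and 66 (48 h vs 12 h), and called gene sums 15, 20 and 23. DESeq2 gave 22, 34 and 37 peaks. A minimum change of 2-fold gave 4, 12 and 1 peaks and 0 gene sums in each comparison. With only the 4 libraries compared, 84 peaks and 35 gene sums were called at 12 h vs 0 h. Leaving out each library gave 6 to 83, 17 to 100 and 13 to 112 peaks, and 2 to 34, 3 to 32 and 0 to 31 gene sums. The replicate block gave 47, 76 and 67 peaks and 20, 23 and 23 gene sums. R1 minus R2 correlated between time points by -0.036, -0.08 and 0.105. These values cannot show whether libraries of the same number shared a culture or batch. Without repeat-masked peaks, the Epha5 sum changed sign at 12 h (0.65) and 48 h (0.56 vs 0 h), and the Unc5c sum at 48 h (1.47 vs 0 h, 1.73 vs 12 h), as fewer peaks were summed. The Sema3e sum between 12 h and 48 h was 0.31 with the GC offset, the Efnb3 sum 0.36 over the gene body alone, and the Plxna1 promoter at 48 h -0.56 and 0.426 without 48 h R1 or R2, and the cause was not tested. With 2 libraries per time point, peaks of few reads had wide errors, and a peak without a call is not shown to be stable.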
